A study of Arabidopsis thaliana with 11 samples.

Results

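The genes described here encode the proteins that coat the oil bodies of Arabidopsis seeds. They are 7 of the 27588 genes in the count table and were taken as a list of loci: the seed oleosins OLEO1 (AT4G25140), OLEO2 (AT5G40420), OLEO3 (AT5G51210), OLEO4 (AT3G27660) and OLEO5 (AT3G01570), the caleosin CLO1 (AT4G26740) and the steroleosin HSD1 (AT5G50600). They were taken by name as proteins of one structure, with earlier results of these data known. The study asked how loss of the linker histone H1 in the mother affects gene expression in the seed. RNA was sequenced from manually dissected endosperm and embryo of F1 seeds at 8 days after the cross. In h1/H1 seeds the mother carried mutant alleles of all 3 H1 genes (h1.1-1, h1.2-2 and also h1.3-1) in the Col-0 background, and in H1/H1 seeds it was wild-type Col-0. The father was wild-type Ler in both, so h1/H1 seeds still received a wild-type copy of each H1 gene. In the endosperm, which has more maternal than paternal genome copies, and in the embryo alike, h1/H1 is therefore a heterozygous state, and the seed coat around them is homozygous mutant tissue of the mother.

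Seeds store triacylglycerol in oil bodies, droplets of oil enclosed by a single layer of phospholipid and a coat of proteins. Oleosins are the main coat proteins. A long hydrophobic hairpin anchors them in the droplet, and they keep droplets small and prevent their fusion. Caleosins bind calcium and have peroxygenase activity, and steroleosins carry a sterol dehydrogenase domain. These genes are seed maturation genes, and in Arabidopsis they are best known from the embryo, although endosperm also stores oil.

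All 7 genes had a match to the RY repeat CATGCA, on either strand, in the 250 bases before the annotated transcript start. The RY repeat is the element bound by the B3-domain regulators of seed maturation. It occurred in 8.43% of the 27443 windows of the same length before annotated genes. The following stretches, read 5′ to 3′ on the strand of the gene from TAIR10.1 (RefSeq), are shown because they hold the match that all members have in common. Capitals mark matches to CATGCA or its complement TGCATG and to ACGTG or its complement CACGT, which is the core bound by bZIP factors and lies inside every G-box, CACGTG.
OLEO1, chr4:12900300-12900429, plus strand: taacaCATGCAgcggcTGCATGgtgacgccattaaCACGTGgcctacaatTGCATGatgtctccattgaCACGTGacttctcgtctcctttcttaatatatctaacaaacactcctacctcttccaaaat
OLEO3, chr5:20819938-20820067, plus strand: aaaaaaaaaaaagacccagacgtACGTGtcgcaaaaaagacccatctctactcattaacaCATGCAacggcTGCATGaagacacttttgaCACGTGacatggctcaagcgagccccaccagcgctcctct
OLEO2, chr5:16174860-16174919, minus strand: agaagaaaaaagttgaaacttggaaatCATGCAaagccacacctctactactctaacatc
OLEO4, chr3:10243069-10243128, plus strand: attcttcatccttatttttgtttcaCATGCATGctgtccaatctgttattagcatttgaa
OLEO5, chr3:222905-222964, minus strand: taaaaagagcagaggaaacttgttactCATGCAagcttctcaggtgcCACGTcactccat
CLO1, chr4:13475372-13475423, minus strand: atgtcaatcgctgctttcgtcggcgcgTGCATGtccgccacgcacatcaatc
HSD1, chr5:20592008-20592067, minus strand: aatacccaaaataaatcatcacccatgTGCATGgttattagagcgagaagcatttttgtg

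OLEO1 and OLEO3 shared more than the single match. In both, a CATGCA was closely followed by a TGCATG and then by a G-box, and the G-box was found in no other member. The G-box occurred in 6.49% of all windows. The shorter core ACGTG was present in OLEO1, OLEO3, OLEO5, CLO1 and HSD1, against 22.9% of all windows. The 8-base palindrome CATGCATG, which contains the RY repeat on both strands, was found in OLEO4, against 0.776% of all windows. The E-box CANNTG, which includes the G-box, was matched in 6 members, all but OLEO2, but it is common, in 55.3% of windows. The heat shock element GAANNTTC was matched in 0 of the 7, against 9.55% of all windows. These matches describe letters in a window and are not measured binding sites.

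**Figure D1:**
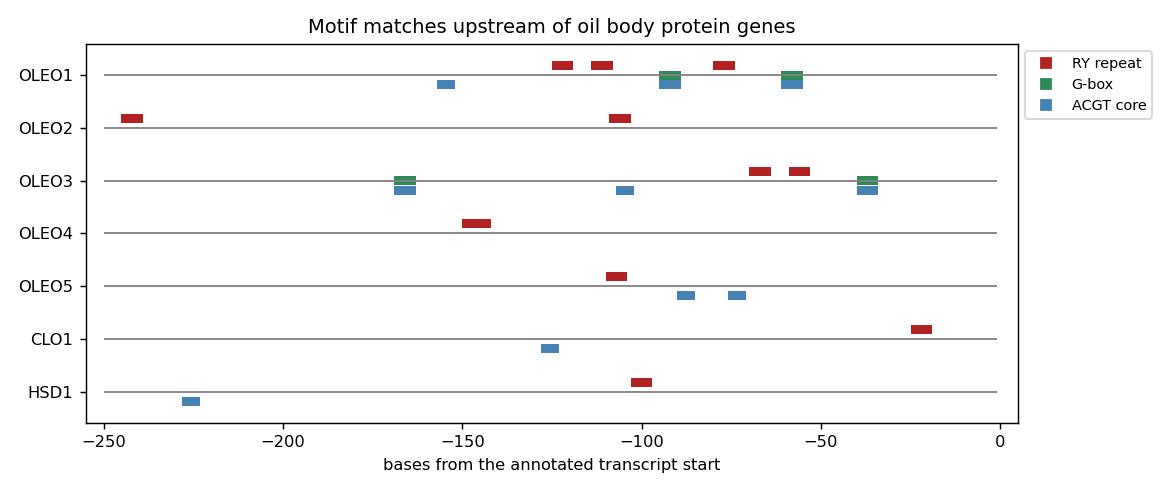
Position of motif matches on either strand in the 250 bases before the annotated transcript start of each gene, with distance from the start in bases on the horizontal axis and 1 line per gene. The RY repeat is present on all 7 lines, and the G-box on those of OLEO1 and OLEO3 alone.

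The 5 oleosin genes have 2 exons each in their annotated transcripts and lie on chromosomes 3, 4 and 5 of TAIR10.1: OLEO1 at chr4:12900430-12901577 and OLEO3 at chr5:20820068-20820944 on the plus strand, OLEO2 at chr5:16173340-16174783 on the minus strand, OLEO4 at chr3:10243244-10245023 on the plus strand and OLEO5 at chr3:221939-222827 on the minus strand. CLO1 (chr4:13473516-13475371, minus strand) and HSD1 (chr5:20589702-20591937, minus strand) have 6 exons. Between pairs of oleosins, 56.0% (OLEO1 and OLEO5) to 74.2% (OLEO1 and OLEO3) of the aligned coding bases were identical. No stretch of 31 bases in the transcripts of the oleosins or CLO1 occurred in a transcript of another gene. HSD1 differs from the rest in this respect. Its transcript of 1549 bases is contained without a mismatch in the 1569 bases of a second copy, AT5G50700 (chr5:20623024-20625279), so reads from the shared bases of the 2 genes cannot be told apart by sequence.

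The column names gave a group for 6 libraries, out of 11 samples in the series. They are C, D and E for h1/H1 endosperm, A and B for H1/H1 endosperm, and the H1/H1 library F, which is called embryo in its column name. These libraries held 13726579 to 20939575 counts. Library B stood apart. All 10 genes of a heat stress list were highest in it, with a median log2(CPM + 1) of 2.46, 0.91 and 1.61 in C, D and E and of 3.86 in A and 6.77 in B. The fold changes of the members are therefore given with and without B, and the part of a heat response in these results was not tested. Leaving out B did not remove the heat difference between the groups. Without B the list's median log2 fold change, h1/H1 over H1/H1, was -1.15 over 8 tested genes, beside 0.02 over all genes. HSP101, at 0.10, and AT5G48570, at 0.41, went the other way. Library F did not show a clear embryo identity. Of 10 embryo marker genes, 6 were too low to be tested. Among these, STM, the shoot meristem gene, was highest in F, at 0.61 CPM against 0.36 CPM or less, and ESR1 was at 0. Of the 4 tested, BBM was above every endosperm library in F, at 2.43 CPM against 2.01 CPM or less. CUC1, at 4.51 CPM against 5.49 CPM or more, and CUC3 were below every endosperm library. The list summed to 9.63 CPM in F, against 10.07 to 19.7 CPM in the endosperm libraries. The endosperm markers were divided. Of the 9 tested, 4 were above every endosperm library in F, among them the imprinted gene PHE1 at 34.0 CPM, against 0.68 CPM or less, and 4 were below, among them SUC5 at 240.7 CPM, against 299.7 CPM or more. The whole list summed to 467 CPM in F, against 552 to 633 CPM. F was therefore kept as a group of its own. The series has 3 H1/H1 endosperm samples, and column names gave A and B alone. Whether F is the missing sample was not tested. In the 5 endosperm libraries the endosperm markers RGE1 (ZOU) and SUC5 reached 52.3 to 81.2 CPM and 299.7 to 399 CPM, whereas WRKY10 (MINI3) and TAR1 were at 0 in all 5. In F, WRKY10 was at 0 as well and TAR1 at 2.43 CPM. Summed seed coat markers reached 6118 to 7434 CPM in h1/H1 and 4152 to 5589 CPM in H1/H1 endosperm, so that the groups did not overlap in this sum. In library F the sum was 5239 CPM. Fewer cells of a type and less RNA per cell cannot be told apart in such samples.

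The oil body genes took a small but variable part of the libraries. Together they made up 0.146%, 0.319% and 0.167% of the counts in C, D and E, against 0.166% and 0.491% in A and B, and 0.190% in F. Thus library B held the most oil body transcripts of either group, and library D the most among h1/H1. The h1/H1 mean of 0.211% ± 0.095 (SD, n = 3) and the H1/H1 mean of 0.328% ± 0.229 (SD, n = 2) did not differ beyond the spread (two-sided exact permutation test, p = 0.6). With 3 libraries against 2, the smallest p that this test can give is 0.1.

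Levels between genes were compared as CPM per kb, that is, counts scaled by TMM to a common library size and divided by transcript length. OLEO1 was the highest, at 1120 ± 896 CPM per kb (SD over the 5 endosperm libraries), and lay at percentile 99.9 of the 23374 genes with a read in endosperm. OLEO5 followed with 595 ± 306, OLEO3 with 542 ± 179, OLEO2 with 413 ± 297 and OLEO4 with 219 ± 150 CPM per kb. The ranges of mean ± SD of neighbours in this order overlapped, but all genes were measured in the same libraries. Within each of the 5 endosperm libraries OLEO1 was above OLEO5, and OLEO2 was above OLEO4. The order of OLEO5 and OLEO3, and that of OLEO3 and OLEO2, differed between libraries. HSD1, at 26.8 ± 41.1 CPM per kb, was lower than OLEO4 by more than either spread. CLO1, at 14.5 ± 19.7 CPM per kb, was below HSD1 in every endosperm library but C. Transcripts of the minor coat proteins were therefore at percentiles 82.6 and 69.5 of all genes, well below the oleosins.

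**Figure D2:**
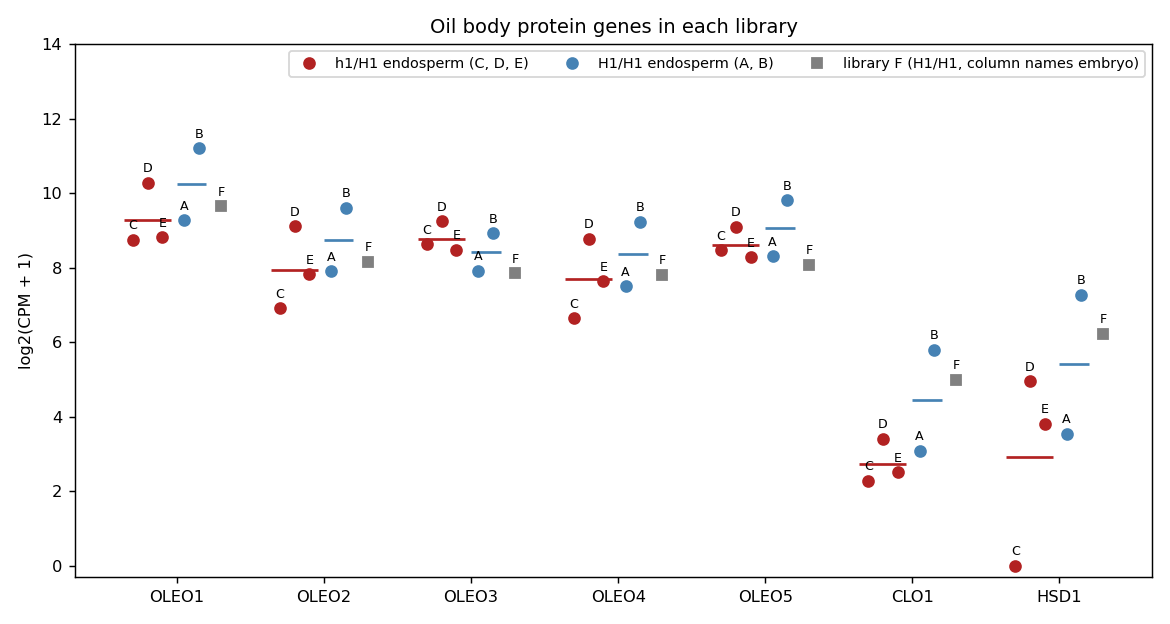
Level of each gene as log2(CPM + 1) in every library, with h1/H1 endosperm libraries C, D and E in red, H1/H1 endosperm libraries A and B in blue and library F in grey, and bars at the group means. Library B is the highest point for every gene but OLEO3, and HSD1 is at 0 in C.

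The central comparison set h1/H1 against H1/H1 endosperm with edgeR's quasi-likelihood test over 18951 genes. The limits for a call were 0.05 for the adjusted p and 2-fold for the change, and 0 of the 7 members passed both. The same was true of all genes, since 0.0% were called. At an unadjusted p under 0.05, CLO1 alone of the 7 was found, against 3.73% of all genes tested. With the counts of its second copy added, HSD1 also had such a p, 0.029 in edgeR's test. DESeq2 called 0.259% of all genes and none of the members, among which the smallest adjusted p was 0.202, for CLO1. The members' median log2 fold change was -0.77, beside -0.02 over all genes, and 1 of the 7, OLEO3, was above 0. Without library B the median was 0.35 over the members and 0.02 over all genes, and without library A it was -1.39 over the members and 0.04 over all genes. In 0 of the 7 genes did the groups stand apart without overlap, as they did for 16.0% of all genes. Library B was the highest of the endosperm libraries for 6 of the 7, against 22.4% of all genes.

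OLEO1, the most abundant oleosin, was at 431, 1244 and 450.0 CPM in C, D and E (h1/H1), against 615 and 2347 CPM in A and B (H1/H1). The groups overlapped, since D lay above A, and B was 3.82 times as high as A. The log2 fold change of OLEO1 was -1.06 (SE 0.63), with an adjusted p of 1 in edgeR's test. Without library B it was 0.21, and its direction therefore depended on that library.

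OLEO2 was at 119, 549.6 and 225 CPM in C, D and E, against 237 and 781 CPM in A and B. OLEO4 was at 99.4, 437 and 198 CPM in C, D and E, against 179 and 599 CPM in A and B. These 2 genes, which were among the closest pairs in coding sequence (71.1% identical), had the same order of libraries except that A and E changed places. Their log2 fold changes of -0.77 (SE 0.66) and -0.67 (SE 0.65) turned to 0.33 and 0.45 without library B.

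OLEO5, which RefSeq describes as a member of the oleosin family, was at 353, 545 and 311 CPM in C, D and E, against 317 and 895 CPM in A and B. Apart from the high value in B, its libraries lay close together. Its log2 fold change was -0.59 (SE 0.45), and 0.35 without library B.

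OLEO3, the oleosin with the shortest coding sequence of the 5 (426 bases), followed another order. It was at 392, 604 and 355 CPM in C, D and E, against 239.6 and 487 CPM in A and B. Its highest library was D and its lowest A, and it was the member with the smallest range, 2.52-fold between libraries. Its log2 fold change was 0.31 (SE 0.39), with an adjusted p of 1 in edgeR's test, and it was 0.91 without library B and -0.11 without library A.

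CLO1, the caleosin, named ATS1 in RefSeq, was at 3.85, 9.59 and 4.71 CPM in C, D and E, against 7.48 and 54.7 CPM in A and B. These levels rest on 55, 124 and 78 counts in h1/H1 and on 142 and 1058 counts in H1/H1. D lay above A, so the groups overlapped. The log2 fold change of CLO1 was -2.37 (SE 0.74), with an unadjusted p of 0.0125 and an adjusted p of 1 in edgeR's test. Leaving out A, the lower H1/H1 library, gave -3.18 with an adjusted p of 0.0137 in edgeR's test, where 0.577% of all genes were called. Leaving out B gave -0.31. The call thus followed which H1/H1 library was kept, and in the first case a single H1/H1 library, B, was assumed to vary as the other groups do.

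HSD1, the steroleosin, was at 0, 29.8 and 13.0 CPM in C, D and E, against 10.7 and 154 CPM in A and B. Its second copy had 113 counts in C, 0 in D and 0 in E, against 42 in A and 110 in B. In C, all reads of the pair had thus been counted for the second copy, and in D and E for HSD1. With the counts of both copies summed, the level was 7.90, 29.8 and 13.0 CPM in C, D and E, against 12.9 and 159 CPM in A and B. The summed log2 fold change was -2.35, beside -2.53 (SE 1.44) for HSD1 alone, and both had an adjusted p of 1 in edgeR's test. The unadjusted p in the same test was 0.029 for the sum and 0.116 for HSD1 alone. Without library A the sum gave -3.24 with an adjusted p of 0.0182 in edgeR's test, and without library B 0.39.

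**Figure D3:**
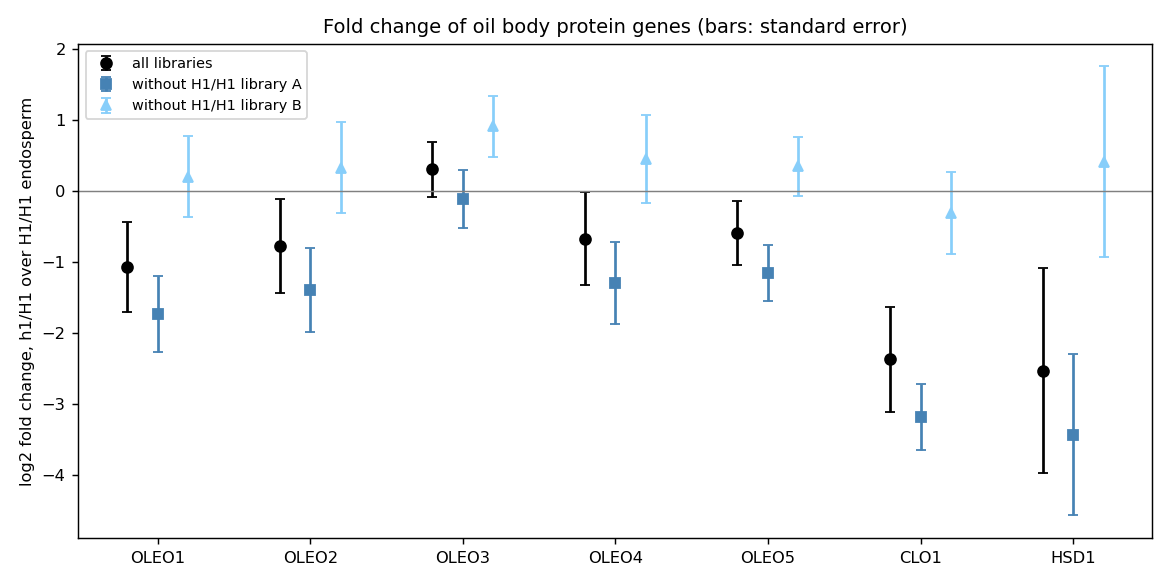
Log2 fold change of each gene in h1/H1 over H1/H1 endosperm from edgeR, with bars of 1 standard error, for all libraries (black), without H1/H1 library A (dark blue) and without H1/H1 library B (light blue). Without B, 6 of the 7 genes are above 0, and CLO1 is at -0.31.

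The proportions between oleosins were compared next, a comparison that was not planned in advance. Of the summed CPM per kb of the 5 oleosins, OLEO3 made up 31.6%, 21.1% and 26.8% in C, D and E, against 17.7% and 11.3% in A and B. Every h1/H1 library was above both H1/H1 libraries, although the h1/H1 mean of 26.5% ± 5.3 (SD, n = 3) against the H1/H1 mean of 14.5% ± 4.5 (SD, n = 2) gave p = 0.2 in the two-sided exact permutation test. OLEO1 took the opposite course, with 29.3%, 36.7% and 28.7% in C, D and E, against 38.4% and 46.2% in A and B (p = 0.2 in the same exact test). The shares of OLEO2, OLEO4 and OLEO5 overlapped between the groups. Library F, which is H1/H1, had 15.1% OLEO3 and 44.5% OLEO1, within the range of A and B.

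**Figure D4:**
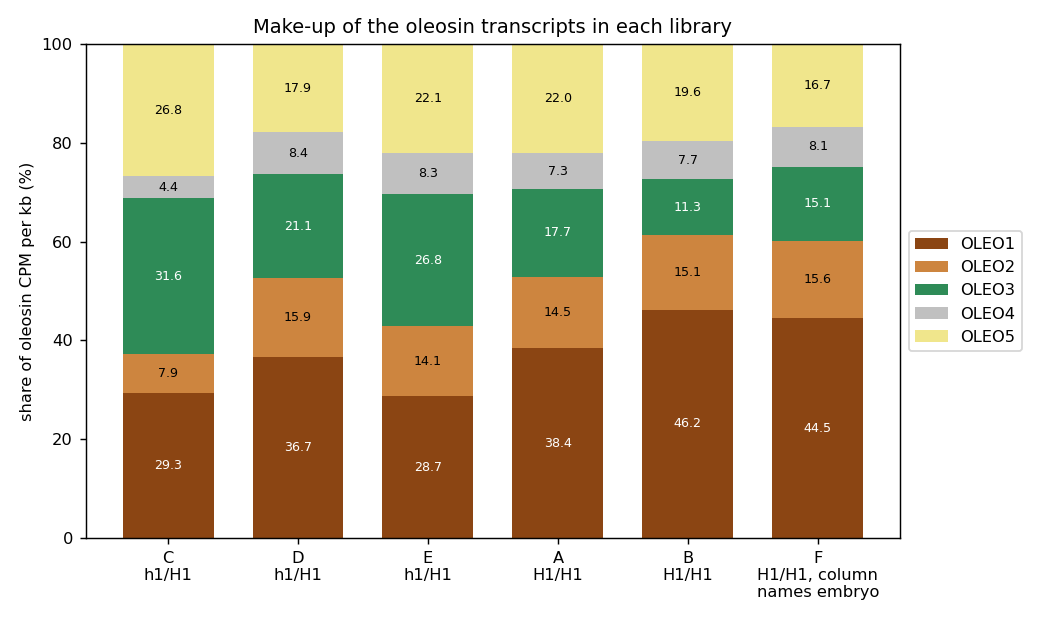
Share of each oleosin in the summed CPM per kb of the 5 oleosins, in percent, with 1 bar per library, h1/H1 left of H1/H1. OLEO3 makes up at least 21.1% in the h1/H1 libraries and at most 17.7% in the H1/H1 libraries.

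For each 100 counts of OLEO1, those of OLEO3 numbered 91.2, 48.5 and 78.9 in C, D and E, against 39.0 and 20.7 in A and B. The log2 ratio of OLEO3 to OLEO1 averaged -0.51 ± 0.48 (SD, n = 3) in h1/H1, against -1.81 ± 0.64 (SD, n = 2) in H1/H1, a difference of 1.31. The difference stayed between 0.85 and 1.76 with each endosperm library left out in turn, the lowest value being that without B. The ratio to OLEO1 did not overlap between the groups for 3.02% of all genes tested. The log2 ratio of OLEO3 to OLEO5 averaged 0.16 ± 0.02 (SD, n = 3) in h1/H1, against -0.64 ± 0.34 (SD, n = 2) in H1/H1. This pair gave the smallest possible p of 0.1 in the two-sided exact permutation test, and the ratio to OLEO5 did not overlap for 4.31% of all genes. Both shares are a poor background for OLEO3. OLEO1 and OLEO5 varied 5.45-fold and 2.88-fold between endosperm libraries with overlapping groups, which carries over to their ratios to steadier genes. No share was computed for genes that vary along with them. Among the 10 pairs of oleosins, 5 did not overlap. These were the 4 pairs with OLEO3 and the pair of OLEO4 with OLEO2, for which the difference was 0.13 on the log2 scale. After adjustment over the 10 pairs, the smallest exact p was 0.4. The pairs share genes and libraries and are not independent.

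The summed level of the seed coat markers, most of which came from TT10 and MUM4, did not overlap between the groups either and was higher in h1/H1. Taken singly, 3 of the 9, TT8, MUM4 and MUM2, did not overlap, against 16.0% of all genes. TT10 did overlap, at 4105 CPM in B against 3323 to 4549 CPM in h1/H1. None of the 9 passed the adjusted threshold, and 7 had a log2 fold change above 0, while TT12 and TTG2 had -1.35 and -0.13. At an unadjusted p under 0.05 were 3 of the 9, against 3.73% of all genes, namely the flavonoid regulator TT8 and the mucilage genes MUM4 and MUM2, with log2 fold changes of 0.72, 0.88 and 0.62, and the list's median was 0.36. Without library B it was 0.03, and MUM4 was the 1 gene left at such a p. None of the 9 was at 0 in every library. The part of seed coat RNA in the proportions of oleosins in the whole counts was not tested.

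Reads of Ler origin were counted by the authors in a separate mapping to Col-0 and Ler cDNA. The seed coat is tissue of the mother and carries no Ler allele, but how often a maternal read was assigned to Ler was not measured here. OLEO3 had 316, 378 and 351 Ler reads in C, D and E, against 274 and 412 in A and B. Scaled to CPM of the Ler reads, these were 2229, 2566 and 1882 in h1/H1 and 1292 and 1754 in H1/H1. The groups did not overlap, as was the case for 17.1% of the 4491 loci tested. The log2 fold change of OLEO3 was 0.55 (SE 0.28), with an adjusted p of 0.998 in edgeR's test, in which 0.0% of all loci were called.

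The other oleosins overlapped between the groups in Ler reads. OLEO1 had 256, 329 and 262 Ler reads in C, D and E, against 297 and 334 in A and B, and a log2 fold change of 0.36 (SE 0.29). OLEO5 had 328, 452 and 437 in C, D and E, against 431 and 582 in A and B, and a log2 fold change of 0.19 (SE 0.26). For OLEO2 and OLEO4 it was -0.04 (SE 0.37) and -0.28 (SE 0.56). CLO1 had 1 or 2 Ler reads in each h1/H1 library and 1 and 6 in A and B, and HSD1 had 0 in every library, so these 2 genes were not tested. For OLEO1 and OLEO5 the log2 fold change was thus below 0 over all reads and above 0 in the paternal reads, and this difference was not tested.

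For each 100 Ler reads of OLEO5, those of OLEO3 numbered 96.3, 83.6 and 80.3 in C, D and E, against 63.6 and 70.8 in A and B, without overlap (two-sided exact permutation test, p = 0.1). This was the case for the ratio to OLEO5 of 17.8% of all loci. For each 100 Ler reads of OLEO1 they numbered 123.4, 115 and 134 in C, D and E, against 92.3 and 123.4 in A and B, and here the groups overlapped (p = 0.4 in the same exact test).

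Ler reads spread over a narrower range than the counts of the same genes. The counts of OLEO1 differed 7.37-fold between endosperm libraries and its Ler reads 1.30-fold. The level of OLEO1 in B was 3.82 times that in A by all reads and 1.02 times by Ler reads. For OLEO1, 1000 counts were accompanied by 41.6, 20.4 and 35.2 Ler reads in C, D and E, against 25.4 and 7.36 in A and B. OLEO4, which has the lowest number, had 5.27 to 9.44 Ler reads per 1000 counts. Across loci with at least 1 Ler read, the median number of Ler reads per 1000 counts fell with the level. It was 15.7 for 8167 loci with 100 to 1000 mean counts, 9.82 for 2743 loci with 1000 to 10000 and 3.87 for 93 loci above this. Leaving out loci without a Ler read can itself raise the median of the lowest class. For highly expressed genes such as the oleosins, Ler reads were therefore not proportional to the counts, and this holds for the ratios of Ler reads given above as well.

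**Figure D5:**
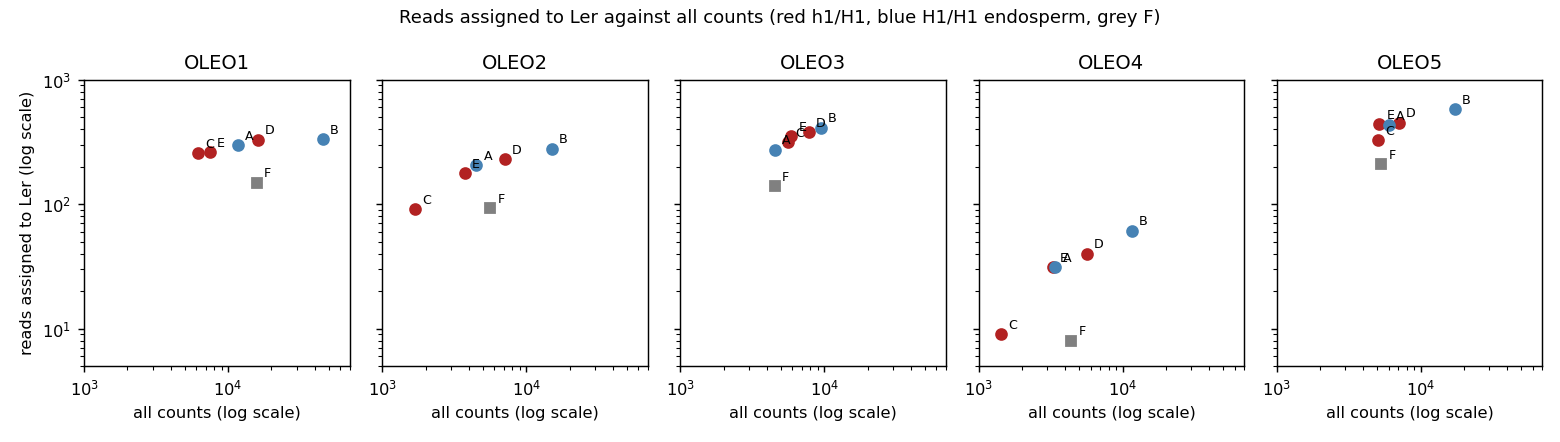
Reads assigned to Ler on the vertical axis against all counts on the horizontal axis, both on log scales, with 1 panel per oleosin and 1 point per library (h1/H1 endosperm red, H1/H1 endosperm blue, F grey). In the panel of OLEO1 the endosperm libraries span 7.37-fold in counts and 1.30-fold in Ler reads.

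In library F, the levels of OLEO1, OLEO2, OLEO4, CLO1 and HSD1 were within the range of the endosperm libraries. OLEO3, at 229 CPM in F, and OLEO5, at 269 CPM, were below it, the lowest endosperm values being 239.6 and 311 CPM. Of all 18951 genes tested, 3135 were below every endosperm library in F. None of the members exceeded all endosperm libraries, as 17.7% of genes were, and none was 2-fold or more higher than their mean, as 4.59% of genes were. On the log2 scale F was at -0.35 for OLEO1, -0.86 for OLEO3 and -0.84 for OLEO5 relative to the endosperm mean, and at 0.90 for CLO1 and 0.81 for HSD1, with a median of -0.42 over the 7 and of -0.04 over all genes. Set against the endosperm libraries without B, the median over the 7 was 0.01. In contrast, 7 of 9 seed storage protein genes were above every endosperm library in F, with a median of 1.72. The storage protein CRU3 was at 415 CPM in F and at no more than 131 CPM in the endosperm libraries. With 1 library these values have no replicate check.

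F is the library for which reads of both parents were used. Its seed coat markers summed to 5239 CPM, within the range of A and B, and the seed coat carries maternal alleles alone. The paternal shares below are therefore not those of a single tissue, and the part of seed coat RNA in them was not tested. OLEO1, OLEO2, OLEO3 and OLEO5 had paternal shares of 23.3% (95% Wilson interval 20.2 to 26.7), 24.9% (20.8 to 29.5), 23.61% (20.4 to 27.2) and 23.2% (20.6 to 26.1). These shares did not differ beyond counting error. OLEO4 was lower, at 3.85% (1.96 to 7.40), or 8 of 208 assigned reads. CLO1 had 0 of 14, which allows a share of up to 21.4%. Over the members together it was 22.0% (20.5 to 23.56), beside 17.9% over all loci and a median of 16.4% with quartiles of 8.55% and 24.5% over 3341 loci with at least 100 assigned reads. The intervals cover counting error only. Reads assigned to Col-0 in F also fell with the level, over loci with at least 1 Ler read. Their median was 78.8, 49.1 and 19.4 per 1000 counts in the same 3 classes of counts in F. Shares of abundant and of rare transcripts may therefore not be comparable.

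Among related genes and pathways, no gene of any list passed the adjusted threshold, and the following counts are at an unadjusted p under 0.05, which 3.73% of all genes had, or 5.3% without library B. Of the other oleosins, which include glycine-rich proteins of the pollen coat, 8 of 11 were tested, with a median log2 fold change of -0.50, and GRP17 had such a p. GRP17 was at 0.85 CPM or less in h1/H1 and at 0.47 CPM in A and 7.35 CPM in B, and its log2 fold change of -2.87 (SE 1.19) turned to 0.15 without B. These genes were far less abundant than the seed oleosins, at a sum of 35.0 to 54.9 CPM in h1/H1 and 33.1 to 73.3 CPM in H1/H1 endosperm. Of the other caleosins, 4 of 6 were tested and 3 had such a p, in both directions. RD20, a caleosin induced by drought and abscisic acid, was at 71.1, 58.8 and 53.3 CPM in C, D and E, against 20.8 and 32.0 CPM in A and B, a log2 fold change of 1.21 (SE 0.30). CLO4 was at 20.7 to 32.4 CPM in C, D and E, against 54.9 and 52.6 CPM in A and B, with -0.94 (SE 0.28), and AT1G70680 had -1.11 (SE 0.30). For all 3 the groups did not overlap, as for 16.0% of all genes, whereas they did for CLO1. Without library B the 3 genes kept such a p and their directions, with 1.55 for RD20, -0.97 for CLO4 and -1.36 for AT1G70680. Of the other steroleosins, 5 of 7 were tested and none had such a p, with a median of -0.44.

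All 12 genes of lipid droplet formation, coat and lipid release were tested. Of these 1 had such a p, SDP1, the lipase that starts the breakdown of stored oil, with -0.86 (SE 0.28), or -0.62 and no longer at such a p without B, and the median was -0.36. Of the 10 genes of triacylglycerol synthesis 1 had such a p, FAD3, the desaturase that makes linolenic acid, at 119, 155 and 182 CPM in C, D and E, against 277 and 393 CPM in A and B, a log2 fold change of -1.14 (SE 0.29), or -0.87 and still at such a p without B, whereas the list's median was -0.04. Of 14 regulators of seed maturation 13 were tested and 1 had such a p, the bZIP factor EEL, with -0.94 (SE 0.26), or -0.63 and no longer at such a p without B, and the median was -0.12. Of the 9 seed storage protein genes 8 were highest in B, the sum reaching 866, 1674 and 409 CPM in C, D and E, against 1424 and 3925 CPM in A and B. At such a p were 4 of them, CRA1, CRU3, SESA2 and SESA5, with log2 fold changes of -1.21, -1.89, -1.78 and -1.09, and the median was -1.42. Without B the median was -0.37, CRA1 and CRU3 kept such a p with -1.05 and -1.42, and SESA2 and SESA5 had -0.37 and -0.83. Of 11 genes of late maturation 4 were tested, with a median of -0.94 and none at such a p. Genes that reached such a p only without B are not counted in this paragraph. Some changes were larger without B. They included ECP63 of late maturation, at -1.68 against -1.06 with B, and the regulator ABI5, at -1.25 against -0.53. GPAT3 of triacylglycerol synthesis was at 2.37 without B and 0.98 with it. Without B the medians were 0.15 for the other oleosins, -0.25 for the other caleosins, -0.26 for the other steroleosins, -0.12 for lipid droplet formation, 0.01 for triacylglycerol synthesis, -0.14 for the regulators and -1.43 for late maturation. Over all genes tested the median was -0.02, and 0.02 without B.

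The mean pattern of the 7 members over the 6 libraries was highest in B, followed by D, F, A, E and C. Members followed it to different degrees. The root mean square difference from the mean pattern, on the centred log2(CPM + 1) scale, was 0.21 for OLEO2, 0.24 for OLEO4, 0.25 for OLEO1, 0.61 for OLEO5, 0.65 for CLO1, 0.86 for OLEO3 and 1.51 for HSD1, where a flat pattern would give 0.92. The value of HSD1 rests on its 0 in C, which also enters the mean pattern and so the choice of similar genes below. With the counts of both copies summed it was 0.71 against the same pattern. With the pattern itself built on the summed counts, HSD1 was at 0.77 and a flat pattern at 0.82. Among 14003 genes whose counts averaged 100 or more, members included, the 10 non-members most like the members had differences of 0.21 to 0.38. They were SSL2, a strictosidine synthase-like gene, DI21, a drought-induced gene, the peroxidase family gene AT4G25980, the saposin-like aspartyl protease AT1G62290, the cupin AT2G28490, PLAT2, the papain family protease AT3G54940, AT1G36060, which RefSeq describes as a DNA-binding protein, and 2 genes of the chloroplast genome, ATCG01050 and ATCG00020. SSL2 was at 24.1, 79.2 and 30.7 CPM in C, D and E, against 39.2 and 134 CPM in A and B. The likeness is a description over 6 libraries, in which B weighs most.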

How the data were processed

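RNA was amplified with the Ovation RNA-seq System V2 from 3 independent sets per cross and tissue, as the study's methods state. Per the labels and methods, the authors trimmed reads with fastp, assigned them to TAIR10 transcripts with Salmon 1.9.0 and deposited counts per gene. The name given to this table calls the values normalized, but they are whole numbers whose totals differ between libraries, and they were treated as raw counts. They also deposited counts of reads assigned to Col-0 or Ler in a mapping to TAIR8 cDNA. The members and lists were chosen with earlier results of these data known.

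Column names gave a group but no replicate number. Not used were 5 columns of total counts, whose names give no group, and 5 columns of Col-0 reads, since each group could be given only as many allele columns as it has samples. The H1/H1 endosperm group is 1 sample short of the 3 in the series, and embryo was not compared.

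Counts were scaled by TMM in edgeR 4.0.16 (R 4.3.3). Genes whose counts averaged 10 or more were compared with its quasi-likelihood test and Benjamini-Hochberg adjustment, with F as a group of its own, and limits of an adjusted p of 0.05 and 2-fold. SE was derived as log2 fold change over √F statistic. Alternatives were DESeq2 1.42.0, its size factors in edgeR, limma 3.58.1 on log2(CPM + 1), no filter, a filter at a mean of 50 counts, no fold limit, the endosperm libraries alone, F counted as H1/H1 endosperm and each endosperm library left out. Summing the HSD1 copies and leaving libraries out of the OLEO3 ratio and of the gene lists were chosen after seeing the data. The comparisons of shares and ratios of the oleosins, in counts and in Ler reads, were not part of the plan fixed in advance. The p-values measure the spread between these libraries. The test was tested on simulated counts with log2 changes of 3. For all reads it called 167 of 195 changed genes and 13 unchanged ones. For Ler reads it called 162 of 172 changed loci and 5 unchanged ones. These changes are larger than those of the members in the main comparison, so the simulation does not show how well smaller changes are found.

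The text names the members, genes of the lists and the 10 genes with the smallest root mean square difference of centred log2(CPM + 1) from the members' mean, among genes whose counts averaged 100 or more. Sequences and gene models are from TAIR10.1 (RefSeq), to which 27390 of the gene identifiers matched. The window of OLEO4 lies before the earlier of its 2 annotated transcript starts.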

Additional observations from a re-analysis of the deposited data

How the results depend on the processing

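Leaving out 1 library changed more than any other setting. The lowest and highest log2 fold changes over the libraries left out were -1.75 and 0.21 for OLEO1, -1.56 and 0.33 for OLEO2, -0.11 and 0.91 for OLEO3, -1.39 and 0.45 for OLEO4, -1.15 and 0.35 for OLEO5, -3.18 and -0.31 for CLO1 and -3.65 and 0.41 for HSD1 (0.39 without B for the summed copies). The values above 0 of all but OLEO3 were those without B, and OLEO3 was below 0 without A. In Ler reads the range was -0.43 to 0.23 for OLEO2 (0.12 without B, 0.23 without C, 0.02 without E) and -0.80 to 0.20 for OLEO4 (0.20 without B, 0.11 without C). With F counted as H1/H1 endosperm, these 2 genes were at 0.23 and 0.14. Called genes numbered 0 in the edgeR test, 49 with DESeq2 (28 higher, 21 lower) and 0 to 109 with a library left out, 109 without A and 9 without B. Members called numbered 0 to 1. Called loci of Ler reads numbered 0, 17 without the filter, and 0 to 18 with a library left out, 18 without A and 4 without B. Of the other 84 alternatives of a member's fold change, 2 changed direction and none was called, the smallest adjusted p from any of these tools (edgeR, DESeq2, limma) being 0.202. The median ratio of F to endosperm ranged from -0.65 to 0.01 with a library left out, the highest without B. No paired analysis was possible because the columns carry no replicate numbers. The comparison is limited by the 2 libraries of the H1/H1 group and the spread between them.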
